A study of Mus musculus with 6 samples.

Results

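The 43 genes described here are immediate early genes, the AP-1 subunits among them, with 8 heat shock genes, named by symbol and matched to mouse Ensembl identifiers in a table of 52636 genes. All 43 were found and all 43 passed the filter on low counts, which kept 15197 genes. They were taken in 7 groups: 9 AP-1 subunits and relatives, 6 EGR and NR4A genes, 8 heat shock genes, 4 MAP kinase phosphatases, 5 genes of mRNA decay and the BTG family, 3 other early transcription factors and 8 other early response genes. RNA sequencing was done in 6 libraries on sorted cells of mouse lung that the labels call innate lymphoid cells (ILCs). Of these, 3 were of KLRG1-positive cells, which the labels call ILC2, and 3 of KLRG1-negative cells. Both sorts also held RNA of other cell types, as described below. Both groups came from wild-type C57BL/6 mice with an IL-4 reporter (4get, green fluorescent protein). Both were given 500 ng of interleukin-33 into the peritoneum for 4 days and killed on day 5, so untreated cells are not part of the comparison. Sorted cells lacked lineage markers and carried CD90, with a purity given as above 90%, and the labels number the libraries 1, 2 and 3 in each sort. They do not say whether the numbers mark mice, days or pools, so a p-value here reflects only how far these samples spread, and that spread may be technical.

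Immediate early genes are transcribed within minutes of a signal from growth factors, cytokines, antigen receptors or stress, without new protein synthesis, and their mRNAs decay fast. MAP kinases and cyclic AMP signalling reach them through serum response factor and CREB, and the products are both transcription factors (AP-1, EGR, NR4A, KLF) and brakes on the same signal (dual-specificity phosphatases, the Zfp36 decay factors, RGS proteins). Handling and dissociation of tissue are also known to induce them. In ILC2s, interleukin-33 signals through MAP kinases and NF-kappaB, and AP-1 and GATA3 act at the cytokine genes. Heat shock genes answer to misfolded protein through a different factor, HSF1, and encode chaperones and their helpers.

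The widest differences in the early genes ran between libraries of different replicate number, and in the same direction in both sorts. No member passed edgeR's test at an adjusted p under 0.05, between the sorts or by number. Fos, Jun, Egr1 and Dusp1 were among 30 members that were lowest in the library numbered 1 of both sorts, against 17.6% of all genes. In number 2 of both sorts 22 members were highest, against 17% of all genes. Of the 8 heat shock genes, 1 was lowest in number 1 of both sorts and none was highest in number 2 of both. Without a block on the replicate number, the smallest adjusted p values between sorts were those of Dusp6, higher in every KLRG1-positive library, and Ier3, lower in every KLRG1-positive library. With the block the smallest was that of Atf3, lower in KLRG1-positive cells (edgeR adjusted p = 0.0867). DESeq2 with the block called 4 members higher and 7 lower, against 4.01% and 11.2% of all genes.

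Assigned counts ranged from 17323004 to 23421426 in KLRG1-positive and from 17898268 to 23946073 in KLRG1-negative libraries, with number 1 the shallowest in each sort. All values below are CPM, with library totals scaled by TMM factors, and are given in the order of library 1, 2 and 3. Klrg1 itself stood at 1485, 1786 and 1327 CPM in KLRG1-positive libraries, against 13.1, 193 and 73.2 CPM in KLRG1-negative libraries. Gata3, taken here as an ILC2 marker, stood at 989.8, 1101 and 811 CPM in KLRG1-positive libraries, against 169, 530.0 and 365 CPM in KLRG1-negative libraries. The T cell gene Cd3e and the fibroblast gene Col3a1 were higher in every KLRG1-negative library than in any KLRG1-positive one. The B cell gene Ighm was not, as it reached 6841 CPM in KLRG1-positive library 3 against 4701 CPM in KLRG1-negative library 2. Cd3e was at 39.0, 8.81 and 12.5 CPM in KLRG1-positive libraries, against 798, 239 and 149 CPM in KLRG1-negative libraries. Col3a1 was at 11.1, 5.98 and 1.86 CPM in KLRG1-positive libraries, against 2146, 2849 and 5763 CPM in KLRG1-negative libraries, the largest of these differences. In bulk RNA, fewer cells of a type and less RNA per cell cannot be told apart, and this holds for every value that follows.

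**Figure D1:**
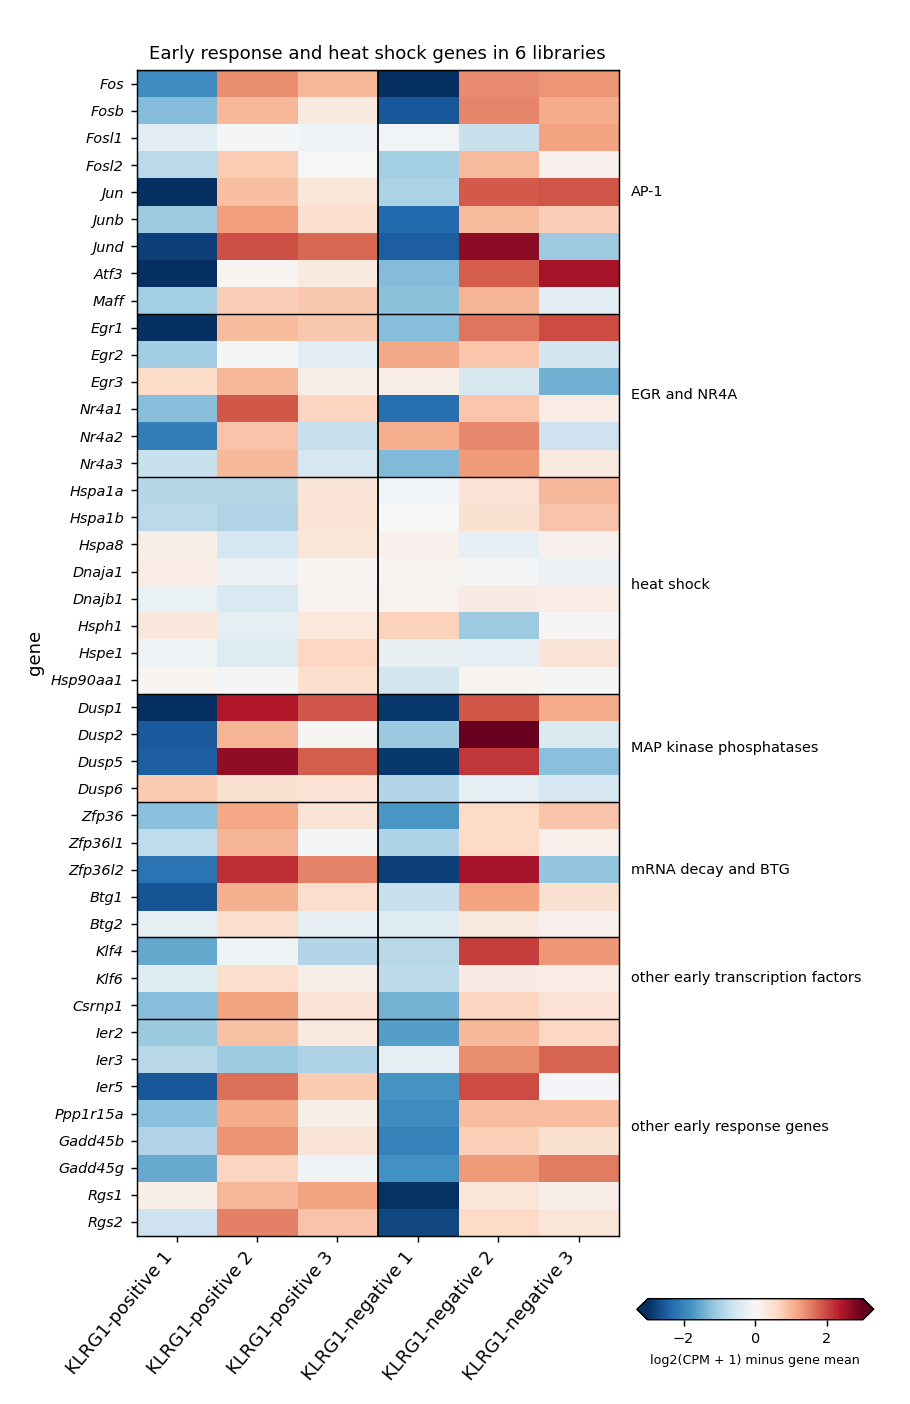
Each row is 1 gene and each column 1 library, KLRG1-positive left of KLRG1-negative; colour is log2(CPM + 1) minus the gene's mean over the 6 libraries, and differences beyond 3 in size share the end colours. The columns of both libraries numbered 1 are blue for most early genes, while the heat shock rows are pale. Of the 43 members, 30 were lowest in number 1 of both sorts, against 17.6% of all genes.

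Between the sorts, edgeR's quasi-likelihood test with Benjamini-Hochberg adjustment called 0 members higher and 0 lower in KLRG1-positive cells, against 0.125% and 1.21% of all 15197 genes. At an unadjusted p under 0.05 it gave 1 member higher (Dusp6) and 2 lower (Klf4 and Ier3), against 4.19% and 11.5% of all genes. DESeq2 called 1 higher (Dusp6) and 1 lower (Ier3), where it called 2.28% and 9.03% of all genes. The median log2 fold change of the 43 members was 0.0008, with 22 of 43 above 0, beside -0.05 and 46.5% for all genes tested. Over the replicate numbers, the same test on both number terms together called 0 members and 0% of all genes, with a smallest adjusted p of 0.413. At an unadjusted p under 0.05 it gave 29 of the 43 members, against 11.4% of all genes, and DESeq2's likelihood ratio test called 25 of 43, against 8.03% of all genes.

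For the libraries numbered 1 against those numbered 2 and 3, with the sort in the model, the members' median log2 difference was -2.06, beside 0.02 for all genes. The 35 members outside the heat shock group had a median of -2.35. An unadjusted p under 0.05 was reached by 29 of 43 members in the lower direction (7.66% of all genes) and by 1, Hsph1, in the higher direction (5.64% of all genes). Number 1 was the lowest of 3 in both sorts for 30 of 43 members, against 17.6% of all genes. It was at least 2-fold below both other numbers in both sorts for 21 members, against 4.18% of all genes, and at least 4-fold below for 6, against 1.05%. Those 6 were Fos, Jun, Atf3, Maff, Egr1 and Dusp1. Number 2 against the others gave 28 members higher (6.84% of all genes) and 2 lower (6.02%) at an unadjusted p under 0.05, and number 3 gave 13 higher (5.11%) and 0 lower (2.52%), with 0 at an adjusted p under 0.05 for any number. Number 2 was highest in both sorts for 22 of 43 members, against 17% of all genes, and number 3 for 5, against 14.9%. Summed over the 35 members outside heat shock, CPM came to 4223, 19883 and 13711 in KLRG1-positive cells, against 2412, 16674 and 13622 in KLRG1-negative cells.

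**Figure D2:**
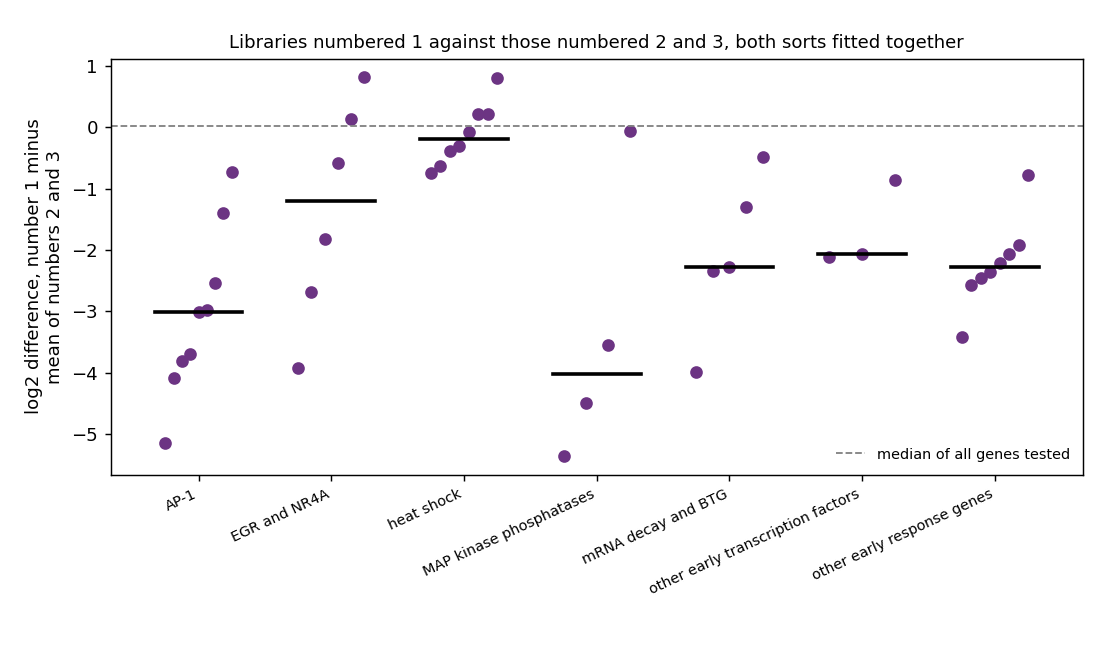
Each point is 1 gene; the vertical axis is its log2 difference between the libraries numbered 1 and the mean of those numbered 2 and 3, with the sort in the model, and bars are group medians. The AP-1 median is -3.02 and the MAP kinase phosphatase median -4.01, while the heat shock median of -0.19 lies near the dashed line at 0.02 for all genes.

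AP-1 is a dimer of a Fos and a Jun family protein, joined here by the stress-induced Atf3 and the small Maf protein Maff. The 9 genes had a median log2 difference of -3.02 for number 1 and of -0.12 between the sorts. Fos (ENSMUSG00000021250, GRCm38 chromosome 12, 85473890 to 85477273, plus strand) had 223, 2147 and 1623 CPM in KLRG1-positive libraries, against 81.8, 2166 and 2044 CPM in KLRG1-negative libraries. Both libraries numbered 1 were low, the other 4 lay within a narrow range, and the sorts overlapped. The log2 fold change between sorts was -0.10 ± 1.20 (SE, edgeR adjusted p = 0.985) without a block on the replicate number. With the block it was 0.35 ± 0.40 (edgeR adjusted p = 0.708). The difference for number 1, with the sort in the model, was -3.80 ± 0.52 (edgeR adjusted p = 0.282). Junb, the most abundant member per kilobase of gene model (836 CPM per kb in KLRG1-positive cells, against 749 CPM per kb in KLRG1-negative ones), had 633, 3234 and 1903 CPM in KLRG1-positive libraries, against 271, 2623 and 2279 CPM in KLRG1-negative libraries. It followed the same order of libraries, with a log2 fold change between sorts of 0.16 ± 0.89 and overlapping groups.

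Jun (ENSMUSG00000052684, GRCm38 chromosome 4, 95049034 to 95052222, minus strand) had 11.8, 403 and 277 CPM in KLRG1-positive libraries, against 111, 763 and 795 CPM in KLRG1-negative libraries. Its KLRG1-positive value was below the KLRG1-negative value at each of the 3 numbers, by a ratio of 0.106, 0.528 and 0.348, yet the groups overlapped, because KLRG1-negative library 1 was below KLRG1-positive libraries 2 and 3. The log2 fold change was -1.27 ± 1.21 (edgeR adjusted p = 0.724), and a block on the replicate number gave -1.86 (edgeR adjusted p = 0.186). Atf3 showed the same arrangement at a lower level, with 0.676, 16.2 and 18.9 CPM in KLRG1-positive libraries, against 5.73, 57.3 and 91.3 CPM in KLRG1-negative libraries. It had the lowest log2 fold change of the AP-1 group, -2.11 ± 1.31 (edgeR adjusted p = 0.537; 0.0867 with the block), and a number 1 difference of -4.09 ± 0.43 (edgeR adjusted p = 0.256). Maff was rarer, at 0.619, 4.43 and 4.75 CPM in KLRG1-positive libraries, against 0.389, 5.60 and 1.63 CPM in KLRG1-negative libraries. Its number 1 values rested on 11 and 7 counts, its number 1 difference was -2.98 ± 0.84 and its log2 fold change between sorts was 0.36 ± 1.15 (edgeR adjusted p = 0.938).

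Of the other 4 AP-1 genes, Fosb, Fosl2 and Jund were lowest in number 1 of both sorts, with number 1 differences of -3.02, -1.41 and -5.14. Jund, counted as the lowest of them in number 1 (0.732 CPM in KLRG1-positive, against 1.17 CPM in KLRG1-negative cells), shares 52.6% of its exon bases with Gm11175 on the opposite strand. Reads there could not be assigned, because counting was without strand, so its level is understated. Fosl1 was at or below 0.534 CPM in KLRG1-positive libraries and was 0 in KLRG1-negative library 2, and it did not follow the number.

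EGR proteins are zinc finger factors and NR4A proteins orphan nuclear receptors; in lymphocytes Nr4a1 is widely read as a reporter of recent antigen receptor signalling. The group had a median number 1 difference of -1.21 and was split. Egr1 had 11, 374 and 339 CPM in KLRG1-positive libraries, against 78.9, 589 and 748 CPM in KLRG1-negative libraries. It was low in both libraries numbered 1 and, like Jun, lower in KLRG1-positive cells at each number. Its log2 fold change was -0.97 ± 1.25 (edgeR adjusted p = 0.814) and its number 1 difference -3.93 ± 0.62 (edgeR adjusted p = 0.282).

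Nr4a1 (ENSMUSG00000023034, GRCm38 chromosome 15, 101266846 to 101274792, plus strand) had 139, 1241 and 529 CPM in KLRG1-positive libraries, against 69.9, 601 and 394 CPM in KLRG1-negative libraries. KLRG1-positive cells had more at each number, with ratios of 1.99, 2.06 and 1.34, but the spread across numbers was wider than that between sorts and the groups overlapped. The log2 fold change was 0.84 ± 0.97 (edgeR adjusted p = 0.781), and 0.82 with the block (edgeR adjusted p = 0.14). Its number 1 difference of -2.68 ± 0.22 had the smallest unadjusted p of all members in that contrast (edgeR adjusted p = 0.256).

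Egr3, with the highest log2 fold change of the group, 1.23 ± 0.67 (edgeR adjusted p = 0.469), had 8.05, 11.4 and 6.04 CPM in KLRG1-positive libraries, against 6.17, 3.43 and 1.30 CPM in KLRG1-negative libraries. It was not low in number 1 of either sort. Nr4a2 had 1.41, 17.1 and 5.19 CPM in KLRG1-positive libraries, against 20.6, 26.5 and 5.53 CPM in KLRG1-negative libraries. Here KLRG1-positive library 1 was low and KLRG1-negative library 1 was not, so the number 1 difference was only -0.59 ± 1.01, and the log2 fold change between sorts was -1.15 ± 0.98 (edgeR adjusted p = 0.681). Egr2 was highest in number 1 of the KLRG1-negative cells (25.4 CPM) and lowest in number 1 of the KLRG1-positive cells (4.90 CPM). Nr4a3 stayed at or below 11.2 CPM in KLRG1-positive cells and 13.9 CPM in KLRG1-negative ones and was highest in number 2 of both.

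**Figure D3:**
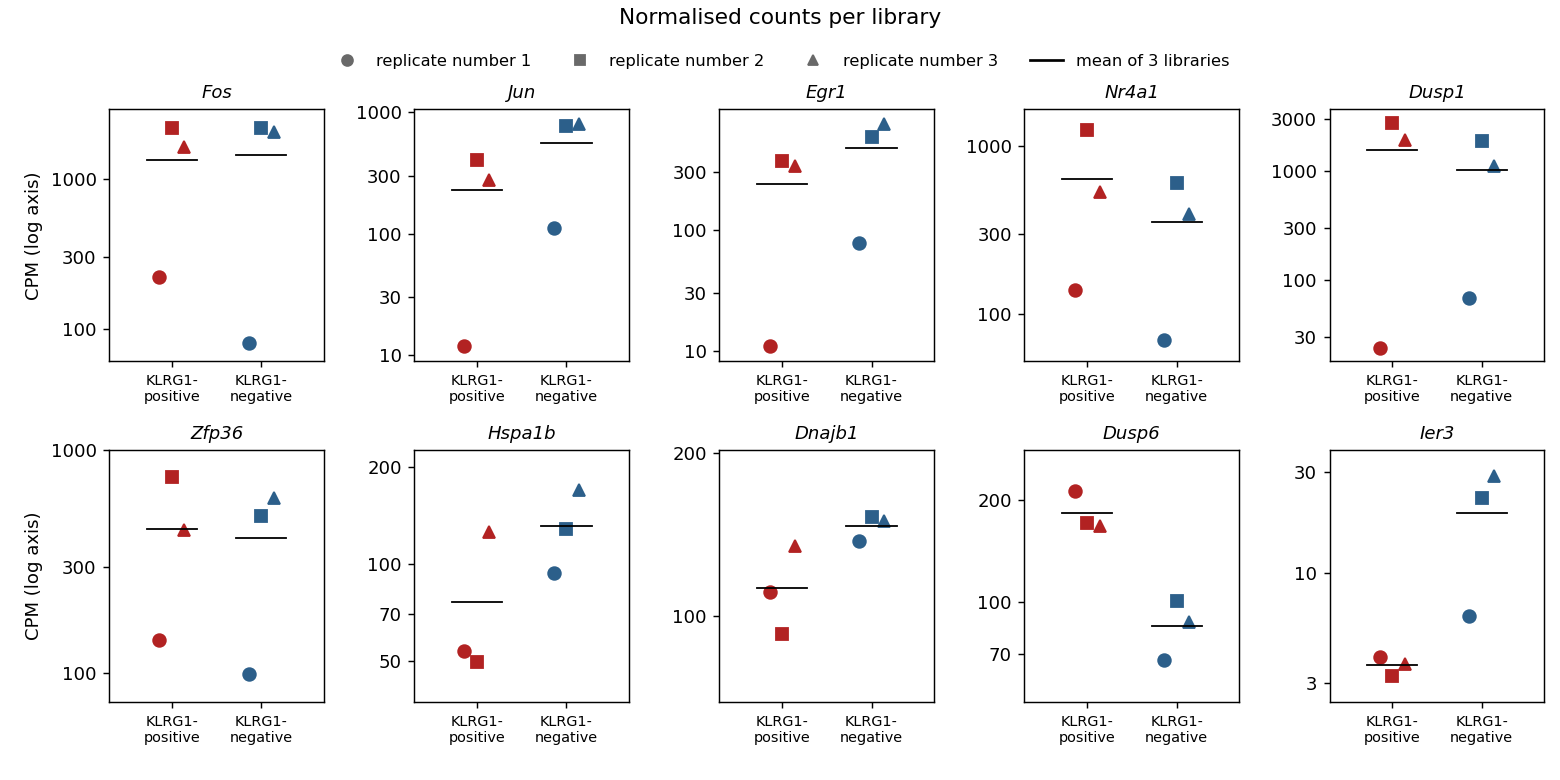
Each panel is 1 gene, points are the 3 libraries of each sort with a shape for each replicate number, lines are means, and the vertical axis is CPM on a log scale with its own range in each panel. Fos, Jun, Egr1, Nr4a1, Dusp1 and Zfp36 have their circles (number 1) lowest in both sorts. Hspa1b and Dnajb1 span less than 4-fold. Dusp6 and Ier3 separate by sort, as does Dnajb1 by a small margin.

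The dual-specificity phosphatases remove phosphate from MAP kinases and so end the signal that induces them; Dusp1, Dusp2 and Dusp5 act in the nucleus and Dusp6 on ERK in the cytoplasm. The first 3 were far lower in number 1 than in number 2 of both sorts. Dusp1 (ENSMUSG00000024190, GRCm38 chromosome 17, 26505590 to 26508519, minus strand) had 24.1, 2755 and 1903 CPM in KLRG1-positive libraries, against 68.4, 1886 and 1115 CPM in KLRG1-negative libraries. Number 2 exceeded number 1 by 114-fold in KLRG1-positive and 27.6-fold in KLRG1-negative cells, with a number 1 difference of -5.35 ± 0.73 (edgeR adjusted p = 0.282). Between the sorts the groups overlapped, with a log2 fold change of 0.61 ± 1.56 (edgeR adjusted p = 0.919). Dusp2 had 0.563, 17.1 and 8.12 CPM in KLRG1-positive libraries, against 3.12, 71.3 and 5.62 CPM in KLRG1-negative libraries, with KLRG1-negative library 2 far above the rest. Its log2 fold change of -1.63 ± 1.505 was the lowest of the group (edgeR adjusted p = 0.713). Dusp5 ran between 4.05 and 178 CPM in KLRG1-positive cells and between 2.78 and 121 CPM in KLRG1-negative cells, with number 2 about as far above number 1 in each sort (43.8-fold and 43.5-fold).

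Dusp6 (ENSMUSG00000019960, GRCm38 chromosome 10, 99263231 to 99267489, plus strand) was the exception. It had 213, 171 and 168 CPM in KLRG1-positive libraries, against 67.1, 100.5 and 87.2 CPM in KLRG1-negative libraries. The lowest KLRG1-positive library was above the highest KLRG1-negative one, which held for 1 of the 43 members (9.46% of all genes), and number 1 was not low. The means were 184 ± 24.9 CPM in KLRG1-positive libraries and 84.9 ± 16.8 CPM in KLRG1-negative libraries (SD, n = 3 each). The log2 fold change was 1.12 ± 0.22 and just missed the threshold (edgeR adjusted p = 0.0689). Under the other settings tried, all of which kept it higher, the log2 fold change lay between 0.86 and 1.37 and the adjusted p between 0.000382 (DESeq2) and 0.195.

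Zfp36 (tristetraprolin) and its relatives bind AU-rich elements and speed the decay of cytokine and early gene mRNAs, and BTG proteins recruit the deadenylase that shortens poly(A) tails. All 5 genes of this group were lowest in number 1 of both sorts, with a median difference of -2.28. Zfp36 had 141, 755 and 441 CPM in KLRG1-positive libraries, against 99.1, 507 and 612 CPM in KLRG1-negative libraries. Its sorts overlapped (log2 fold change 0.13 ± 0.80, edgeR adjusted p = 0.973). Zfp36l2, with the highest log2 fold change between sorts in this group, had 29.2, 644 and 392 CPM in KLRG1-positive libraries, against 19.0, 773 and 61.3 CPM in KLRG1-negative libraries. KLRG1-negative library 3 was low beside KLRG1-negative library 2, whereas KLRG1-positive library 3 stayed high, and the log2 fold change was 0.32 ± 1.501 (edgeR adjusted p = 0.964). Btg1 had 52.3, 668 and 464 CPM in KLRG1-positive libraries, against 200.0, 732 and 439 CPM in KLRG1-negative libraries. It was low in KLRG1-positive library 1 above all, with a number 1 difference of -2.35 ± 0.55 and a log2 fold change between sorts of -0.21 ± 0.89 (edgeR adjusted p = 0.958). Zfp36l1 had a number 1 difference of -1.30 and Btg2 one of -0.49, the smallest of the group. Zfp36l1 overlaps Gm26669 on the opposite strand over 55.9% of its exon bases, so its count is understated.

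Among the other early transcription factors, Klf6, a Krüppel-like factor, was abundant and varied least, at 794, 1468 and 1146 CPM in KLRG1-positive libraries, against 590.0, 1208 and 1196 CPM in KLRG1-negative libraries. Its number 1 difference was -0.87 ± 0.17 and its log2 fold change between sorts 0.19 ± 0.36 (edgeR adjusted p = 0.886). Csrnp1, a nuclear protein of a cysteine- and serine-rich family, had 46.7, 267 and 154 CPM in KLRG1-positive libraries, against 42.7, 183 and 157 CPM in KLRG1-negative libraries. The sorts were close at number 1 and number 3, and the number 1 difference was -2.06 ± 0.20 (edgeR adjusted p = 0.256), with a log2 fold change between sorts of 0.29 ± 0.74. Klf4, the rarest of the 3, had 1.46, 5.50 and 2.89 CPM in KLRG1-positive libraries, against 3.00, 28.9 and 16.5 CPM in KLRG1-negative libraries. KLRG1-positive cells had less at each number, though KLRG1-positive library 2 exceeded KLRG1-negative library 1, and the log2 fold change of -2.30 ± 0.92 had an unadjusted p of 0.0446 (edgeR adjusted p = 0.3).

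Rgs1 and Rgs2 speed the shut-off of G protein signals downstream of chemokine and other receptors. Rgs1 had 949, 1653 and 1916 CPM in KLRG1-positive libraries, against 104, 1053 and 943 CPM in KLRG1-negative libraries. The low library was KLRG1-negative 1, where KLRG1-positive library 1 had 9.11 times as much, and the other 5 ran from 943 to 1916 CPM, with the sorts overlapping. The log2 fold change was 1.11 ± 0.79 (edgeR adjusted p = 0.606). Rgs2 had 299.8, 1311 and 836 CPM in KLRG1-positive libraries, against 68.5, 699.7 and 594 CPM in KLRG1-negative libraries. It too was higher in KLRG1-positive cells at each number, with ratios of 4.38, 1.87 and 1.41, overlapping groups and a log2 fold change of 0.84 ± 0.88 (edgeR adjusted p = 0.756).

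Ier3, a stress-induced gene that modulates survival and ERK signalling, went the other way. It (ENSMUSG00000003541, GRCm38 chromosome 17, 35821684 to 35822923, plus strand) had 4.00, 3.26 and 3.68 CPM in KLRG1-positive libraries, against 6.23, 22.4 and 28.7 CPM in KLRG1-negative libraries. The KLRG1-positive libraries lay close together and all below the KLRG1-negative ones, and within KLRG1-negative cells number 1 was lowest. Groups that do not overlap in this direction were found for 2 of 43 members, Ier3 and Dnajb1, against 15.2% of all genes. Means were 3.65 ± 0.371 CPM in KLRG1-positive libraries and 19.1 ± 11.6 CPM in KLRG1-negative libraries (SD, n = 3 each), and the log2 fold change was -2.39 ± 0.62 (edgeR adjusted p = 0.123). Over the other settings it lay between -2.87 and -1.96, with an adjusted p between 0.00254 (DESeq2) and 0.344. The other 5 genes of this group (Ier2, Ier5, Ppp1r15a, Gadd45b and Gadd45g) were all lowest in number 1 of both sorts, by differences of -3.42 to -2.06, with log2 fold changes between sorts of -1.01 to 0.42.

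**Figure D4:**
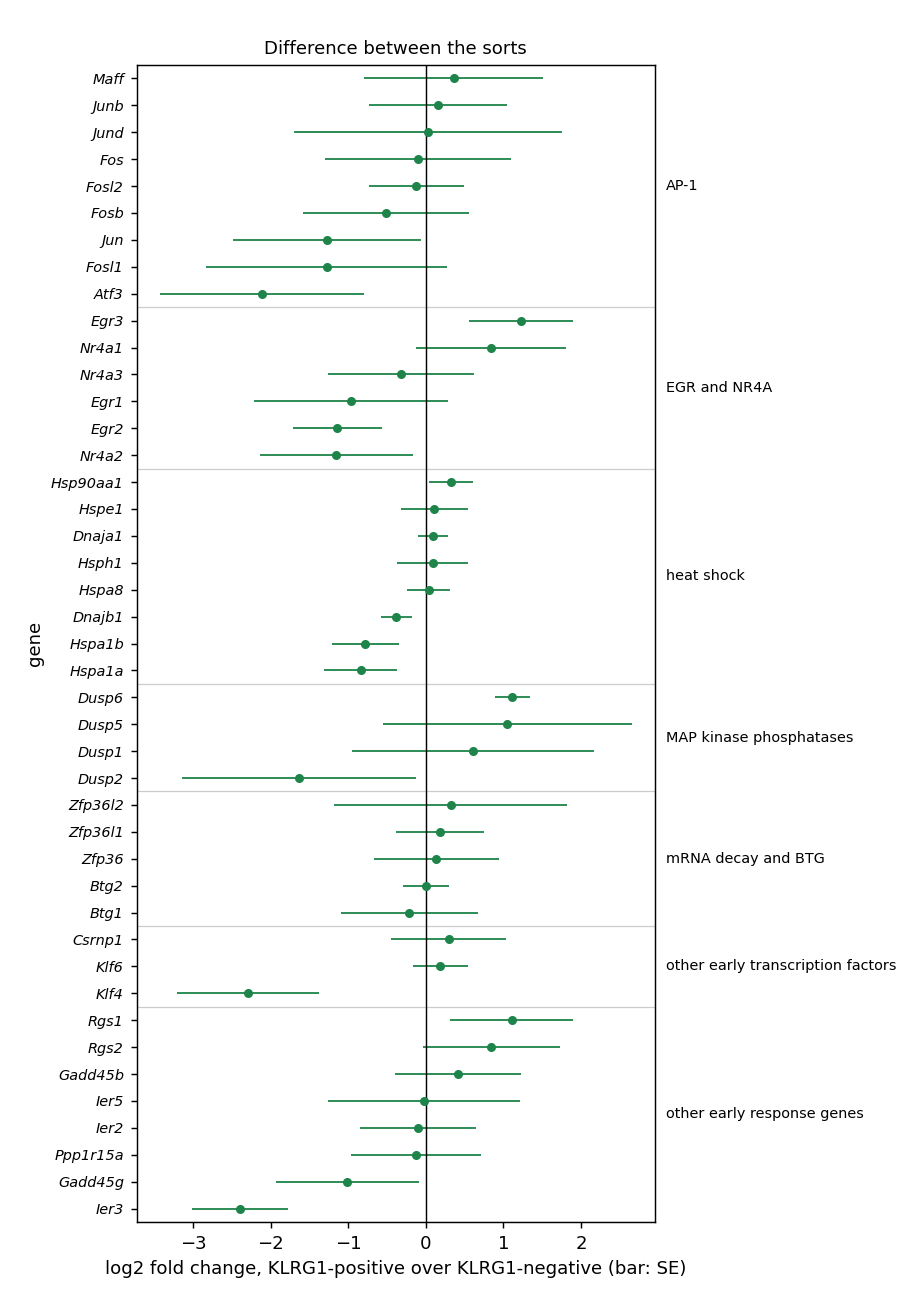
Each point is a gene's log2 fold change of KLRG1-positive over KLRG1-negative cells from edgeR without a block on the replicate number. Each bar is its standard error (n = 3 libraries a sort), and genes are ordered by value within their group. Bars are long for the early genes that differed most between replicate numbers and short for the heat shock genes; Dusp6, at 1.12 ± 0.22, has a short bar well clear of 0.

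The promoter windows of 4 genes that shared the number pattern and hold such elements are shown for the elements that CREB and serum response factor are known to use. Windows run from 250 bases before to 50 after a start and come from RefSeq on GRCm38.p6, which had windows for 35 of the 43 members. Capitals mark the cyclic AMP half-site TGACG in either orientation, also where 2 of them form the full element TGACGTCA, and in Dusp5 also the serum response element (CArG box), of which 2 stand side by side. The windows are chr12:85473640-85473939 on the plus strand (Fos), chr15:101266596-101266895 on the plus strand (Nr4a1), chr17:26508423-26508722 on the minus strand (Dusp1) and chr19:53528895-53529194 on the plus strand (Dusp5).
Fos: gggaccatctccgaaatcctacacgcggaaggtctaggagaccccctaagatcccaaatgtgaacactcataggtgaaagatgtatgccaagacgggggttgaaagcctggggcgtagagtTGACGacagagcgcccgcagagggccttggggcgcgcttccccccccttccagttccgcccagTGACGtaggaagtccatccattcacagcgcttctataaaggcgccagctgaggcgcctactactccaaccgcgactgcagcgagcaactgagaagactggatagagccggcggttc
Nr4a1: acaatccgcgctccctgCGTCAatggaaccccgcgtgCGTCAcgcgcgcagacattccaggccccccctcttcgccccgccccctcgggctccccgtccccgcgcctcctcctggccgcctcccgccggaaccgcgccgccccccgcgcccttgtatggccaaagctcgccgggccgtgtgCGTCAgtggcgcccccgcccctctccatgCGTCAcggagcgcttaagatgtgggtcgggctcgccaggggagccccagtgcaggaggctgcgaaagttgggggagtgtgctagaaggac
Dusp1: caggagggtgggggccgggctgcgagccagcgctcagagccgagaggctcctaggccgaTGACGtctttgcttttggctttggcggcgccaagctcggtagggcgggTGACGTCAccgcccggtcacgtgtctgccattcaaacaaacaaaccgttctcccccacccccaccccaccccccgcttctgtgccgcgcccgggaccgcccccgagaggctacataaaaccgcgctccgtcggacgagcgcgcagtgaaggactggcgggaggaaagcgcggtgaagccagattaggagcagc
Dusp5: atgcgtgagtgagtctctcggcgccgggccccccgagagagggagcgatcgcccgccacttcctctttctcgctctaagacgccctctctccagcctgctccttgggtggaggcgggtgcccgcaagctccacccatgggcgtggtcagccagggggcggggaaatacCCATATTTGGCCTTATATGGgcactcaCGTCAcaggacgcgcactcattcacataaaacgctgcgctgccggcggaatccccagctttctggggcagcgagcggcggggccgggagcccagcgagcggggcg

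Searched on both strands, TGACG was in 56.2% of the 48 member windows, against 30% of the windows of all genes tested and 20.8% of all windows. The Nr4a1 window held 4 copies, as did those of Nr4a2 and Nr4a3. Of the 35 members with a window, 21 held TGACG, among them the 4 shown above, against 3635 of the 10510 genes tested with a window. The window of Jun, also low in number 1 of both sorts, held neither TGACG nor a CArG box. Conversely, TGACG was in windows of Egr2 and Nr4a2, which were not lowest in number 1 of both sorts. It was also in windows of 3 of the 6 heat shock genes with a window (Dnaja1, Dnajb1 and Hspe1), none of them lowest in number 1 of both sorts. The full element TGACGTCA, which contains the half-site, was in 8.33% of member windows (Btg2, Dusp1, Maff and Ppp1r15a), against 2.89% for genes tested. The CArG box was in 12.5% of member windows, all in Dusp5, Egr2 and Zfp36, against 1.29% for genes tested, and 4 of these 6 windows are alternative starts of Egr2. The EGR site GCGGGGGCG was in 14.6%, against 5.09%, and the AP-1 site TGANTCA in 4.17%, against 5.36%. Elements outside the windows were not searched, nor were members without a window, Egr1 and Egr3 among them. A missing match therefore does not show that a gene lacks the element. A match describes these letters only, and no binding was measured.

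Hspa1a and Hspa1b encode the inducible cytosolic chaperone of the 70-kilodalton class, Hspa8 its constitutive relative, Dnaja1 and Dnajb1 cochaperones that load clients onto it, and Hsph1 a partner that exchanges its nucleotide. Hsp90aa1 encodes a stress-inducible cytosolic chaperone and Hspe1 a mitochondrial one. Their summed CPM was 644, 481 and 811 in KLRG1-positive cells and 739, 653 and 809 in KLRG1-negative cells. The median log2 difference was -0.19 for number 1 and 0.06 between the sorts. Of the 8, 4 were highest in number 3 of both sorts, against 14.9% of all genes. Hspa1a and Hspa1b are among these 4 and, as described below, are near copies whose counts are understated. By number, 3 of the 8 (Hspa1a, Hspa1b and Hsph1) reached an unadjusted p under 0.05 with edgeR, against 11.4% of all genes, and 0 an adjusted one. Number 3 against the others differed by 1.06 on the log2 scale for Hspa1a and by 0.96 for Hspa1b (edgeR adjusted p = 0.645 for each). Number 2 differed by -0.58 for Hspa8 (edgeR adjusted p = 0.366) and by -1.04 for Hsph1 (edgeR adjusted p = 0.355).

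The inducible pair had similar profiles over the libraries. Hspa1a (ENSMUSG00000091971, GRCm38 chromosome 17, 34969190 to 34972156, minus strand) had 22.5, 22.7 and 55.4 CPM in KLRG1-positive libraries, against 39.2, 57.3 and 83.7 CPM in KLRG1-negative libraries. Hspa1b (ENSMUSG00000090877, GRCm38 chromosome 17, 34956436 to 34959238, minus strand) had 53.7, 49.6 and 126 CPM in KLRG1-positive libraries, against 94.0, 129 and 170.3 CPM in KLRG1-negative libraries. Both were lower in KLRG1-positive cells at each number, with overlapping groups, and highest in number 3 of each sort rather than number 2. Log2 fold changes were -0.84 ± 0.48 for Hspa1a (edgeR adjusted p = 0.487) and -0.78 ± 0.44 for Hspa1b (edgeR adjusted p = 0.482). Of the 50-base stretches of Hspa1a 60.4%, and of those of Hspa1b 62.3%, occur in another gene, chiefly in each other. That length was set here, as the sources used do not give that of the reads. Reads that map to several places were left out, so the counts of both genes are understated and rest on reads that map to a single place. Their promoter windows are shown because they are near copies too, identical at 296 of 300 bases. Capitals mark the heat shock element core GAANNTTC, 104 to 97 bases before the start in each, at chr17:34972107-34972406 (Hspa1a) and chr17:34959189-34959488 (Hspa1b), both on the minus strand.
Hspa1a: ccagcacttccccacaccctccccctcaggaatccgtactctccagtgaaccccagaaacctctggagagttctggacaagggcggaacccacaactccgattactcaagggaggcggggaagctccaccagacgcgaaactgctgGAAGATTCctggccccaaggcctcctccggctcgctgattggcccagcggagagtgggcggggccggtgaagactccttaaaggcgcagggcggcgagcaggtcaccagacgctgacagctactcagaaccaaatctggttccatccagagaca
Hspa1b: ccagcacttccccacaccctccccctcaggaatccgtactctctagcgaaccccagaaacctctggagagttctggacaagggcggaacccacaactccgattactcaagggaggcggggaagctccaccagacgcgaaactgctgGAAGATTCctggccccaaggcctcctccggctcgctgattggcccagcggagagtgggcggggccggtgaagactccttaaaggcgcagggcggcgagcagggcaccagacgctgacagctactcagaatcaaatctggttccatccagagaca

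The core was in 60% of heat shock gene windows (5 of 6 genes with a window), against 5.72% of the windows of genes tested. Dnajb1 had 111, 92.4 and 135 CPM in KLRG1-positive libraries, against 138, 152 and 149.5 CPM in KLRG1-negative libraries. All KLRG1-positive libraries were below all KLRG1-negative ones, by a small margin (log2 fold change -0.38 ± 0.20, edgeR adjusted p = 0.439), and the number 1 difference was -0.08 ± 0.19. Hspa8 had 159.7, 97.6 and 182 CPM in KLRG1-positive libraries, against 154, 120.0 and 155 CPM in KLRG1-negative libraries, with number 2 lowest in both sorts and a log2 fold change of 0.04 ± 0.27 (edgeR adjusted p = 0.977). Hsp90aa1, with the highest log2 fold change between sorts in this group, 0.33 ± 0.28 (edgeR adjusted p = 0.688), had 43.7, 40.4 and 59.8 CPM in KLRG1-positive libraries, against 28.4, 45.0 and 41.3 CPM in KLRG1-negative libraries. Hspa8 and Hsp90aa1 share 38.6% and 47.5% of their 50-base stretches with other genes, so their counts are understated. Dnaja1, Hsph1 and Hspe1 had log2 fold changes between sorts of 0.09, 0.09 and 0.11, and Hsph1 was the 1 member with a higher number 1 value at an unadjusted p of 0.0436 (difference 0.80 ± 0.28).

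At matched numbers, 6 members (Egr3, Nr4a1, Dusp5, Dusp6, Rgs1 and Rgs2) were higher in KLRG1-positive cells all 3 times, against 21.7% of all genes. The 9 lower all 3 times (against 25.1%) were Jun, Atf3, Egr1, Nr4a2, Hspa1a, Hspa1b, Dnajb1, Klf4 and Ier3. With a block on the replicate number, edgeR called 0 of the 43 higher and 0 lower, against 0% and 0.349% of all genes; at an unadjusted p under 0.05, 3 were higher (Nr4a1, Dusp6 and Rgs2; 6.74% of all genes) and 7 lower (Jun, Atf3, Egr1, Hspa1a, Hspa1b, Klf4 and Ier3; 12.3%). DESeq2 with the block called 4 higher (those 3 and Rgs1) and the same 7 lower, against 4.01% and 11.2% of all genes. Without both libraries numbered 1, edgeR again called 0 higher and 0 lower, against 0.0193% and 1.08% of all genes. At an unadjusted p under 0.05, 2 were higher (Dusp6 and Rgs1) and 6 lower (Jun, Atf3, Egr1, Klf4, Ier3 and Gadd45g). In either direction, 14.5% of all genes reached an unadjusted p under 0.05 in this fit.

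KLRG1-positive library 3 was at least 4-fold below KLRG1-positive library 2 for 0 members (4.86% of all genes), whereas KLRG1-negative library 3 was at least 4-fold below KLRG1-negative library 2 for 6 (8.93% of all genes): Jund, Nr4a2, Dusp2, Dusp5, Zfp36l2 and Ier5. Fos, Jun and Egr1 were not among them. Both counts lie within a few genes of the share of all genes, there is 1 library for each number and sort, and the difference between the sorts was not tested.

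Markers of other cells also differed by number. Of 8 endothelial markers, 7 were highest in number 1 of both sorts (16.6% of all genes). Their list summed to 311, 166 and 95.9 CPM in KLRG1-positive cells, against 500.2, 140 and 241 CPM in KLRG1-negative ones. Of 11 T cell markers tested, 9 were highest there too. The T cell list summed to 1075, 1158 and 1015 CPM, highest in number 2, in KLRG1-positive cells, against 7236, 3477 and 2010 CPM in KLRG1-negative ones. Sums cover every listed marker, also those that the filter on low counts removed. Epithelial markers summed to 533, 15.9 and 15.8 CPM in KLRG1-positive cells, against 602, 115 and 102 CPM in KLRG1-negative ones, with Sftpc at 329.8, 0.374 and 0.400 CPM in KLRG1-positive libraries, against 366, 2.33 and 1.15 CPM in KLRG1-negative libraries. Of 10 B cell markers, 8 were highest in number 3 of both sorts (14.9% of all genes). They summed to 4193, 2462 and 8521 CPM in KLRG1-positive cells, against 27231, 7387 and 28983 CPM in KLRG1-negative ones. Of 9 ILC1 and NK cell markers, 7 were highest in number 1 of both (16.6% of all genes), with sums of 535, 129 and 207 CPM, against 1832, 1099 and 609 CPM. Of 9 macrophage, monocyte and neutrophil markers, 6 were lowest in number 3 of both (12% of all genes), with sums of 313, 277 and 55.7 CPM, against 382, 251.4 and 94.3 CPM. ILC2 markers differed by number as well. Of 14, 7 were highest in number 2 of both sorts (17% of all genes) and 4 were lowest in number 1 of both (17.6%). Their median number 1 difference was -1.10, beside 0.02 for all genes. They summed to 8548, 9990 and 8365 CPM in KLRG1-positive cells, against 1660, 4352 and 3174 CPM in KLRG1-negative ones. The B cell and fibroblast sums each exceeded the ILC2 sum in every KLRG1-negative library, and the B cell sum also did in KLRG1-positive library 3. Sums over unlike lists do not give shares of cells. The share of alignments outside gene models was highest in number 2 of both sorts, at 5.81, 8.30 and 4.76% in KLRG1-positive and 7.89, 10.4 and 6.24% in KLRG1-negative cells. Between the sorts, fibroblast markers summed to 19.3 to 55.7 CPM in KLRG1-positive cells, against 4462 to 12287 CPM in KLRG1-negative ones. No defining marker of these lists was at 0 in every library of a sort, apart from 1 myeloid marker in KLRG1-positive cells. The part of these cells in the values of the early genes was not tested.

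Genes around the pathway were counted from wider lists, beside 0.125% of all genes called higher and 1.21% lower between sorts. Of 27 MAP kinases and upstream factors, 1 was higher and 0 lower in KLRG1-positive cells, with a median log2 fold change of 0.19. That one, Rps6ka5, a nuclear kinase that phosphorylates CREB and histone H3, had 141, 82.4 and 111 CPM in KLRG1-positive libraries, against 35.9, 36.7 and 40.2 CPM in KLRG1-negative libraries (log2 fold change 1.57 ± 0.25, edgeR adjusted p = 0.0476; 0.0882 with the block). Of 31 other early response genes tested, 0 were higher and 1 lower, with a median of -0.08. The lower one, Errfi1, an inhibitor of the EGF receptor, had 3.55, 5.87 and 4.44 CPM in KLRG1-positive libraries, against 26.7, 20.4 and 37.5 CPM in KLRG1-negative libraries (log2 fold change -2.61 ± 0.40, edgeR adjusted p = 0.0454; 0.0987 with the block). None of 22 other bZIP partners, 8 other phosphatases of the family or 32 other chaperones and heat shock factors was called, with medians of -0.05, -0.59 and 0.11; at an unadjusted p under 0.05, 2, 0 and 0 were higher (4.19% of all genes) and 2, 2 and 6 lower (11.5%). By replicate number, 18 of the 31 other early genes and 15 of the 32 other chaperone genes reached an unadjusted p under 0.05 with edgeR, against 11.4% of all genes, and 0 of either an adjusted one. The median number 1 difference was -1.46 for the early genes and 0.03 for the chaperones.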

How the data were processed

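The 43 members, the wider gene lists and the tests were chosen with earlier results of these data known. Per the file headers, the authors counted reads over Ensembl release 90 gene models of GRCm38 with featureCounts 1.5.2. Strand was ignored, and reads that mapped to several places or to several genes were not counted. The deposited gene length column, another unit, was used only for levels per kilobase. The submitters' processing notes name bcl2fastq, STAR 2.4.1d and Subread 1.5.2. Libraries were made with a SMARTer low-input kit and Nextera XT, which does not mark strand, per the labels' protocols. Symbols came from GENCODE M21, which matched 52403 of 52636 identifiers.

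From the counts, edgeR 4.0.16 (R 4.3.3) was run with TMM factors, filterByExpr by sort and robust quasi-likelihood F tests over 15197 genes, and p-values, all two-sided for a single contrast, were adjusted by the Benjamini-Hochberg method (threshold 0.05). One fit compared the sorts. Another, with sort and replicate number, tested both number terms together and each number against the other numbers. Fold changes between sorts are from the first fit unless a block is named, so their standard errors include the spread between numbers. Standard errors derive from the F statistic. The biological coefficient of variation was 0.631. The median log2 fold change of all genes was -0.05 with TMM, -0.05 with relative log expression factors and -0.08 with library size only. DESeq2 1.42.0 was an alternative. The code was tested on simulated data.

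Deviations of same-numbered libraries from their sort's mean correlated across genes at 0.382, 0.338 and 0.188 for numbers 1, 2 and 3, and at 0.0565 at most for different numbers. Deviations within a sort cancel for each gene, so the value for different numbers is not an independent contrast. The numbers were therefore read only as a block that same-numbered samples share, a reading from the data and not from the labels. What these samples shared was not tested. No libraries were near-identical. Values in every library are given for the 2 most abundant members of each group, those with the highest and lowest log2 fold change between sorts, and Fos, Jun, Egr1, Nr4a1, Hspa1a and Hspa1b. Where other members are given, they were chosen after their values were seen.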

Additional observations from a re-analysis of the deposited data

How the results depend on the processing

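Counts of called members were 0 higher and 0 lower by sort and 0 by number with edgeR under relative log expression factors, library size only, no filter on low counts, no sort term (number only) and each library left out in turn, although the genes called between sorts over the whole table ranged from 0 to 164 when 1 library was left out, against 203 with all 6, and was 319 without the filter. The replicate block also gave 0 and 0, with 53 genes called overall. DESeq2 moved the counts: 1 higher, 1 lower and 25 by number (1719 genes by sort and 1221 by number overall), and with the replicate block, chosen after seeing the data, 4 higher and 7 lower (2306 genes overall). The cause of this gap between tools was not tested. With 1 library left out, a number has a lone library, assumed to vary like the others.

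Some uncalled differences changed sign; those given here are of the 26 members whose values are given by library, and further members, such as Fosl1, Egr2, Fosb, Fosl2 and Jund, also crossed 0 when single libraries were left out. Between the sorts, Fos was at 0.0029 without the filter and at 0.35 with the block (0.36 in DESeq2), Hspa8 at -0.0032 (-0.0015) and Dusp1 at -0.024 (-0.027); without a sort term the number 1 difference was 0.024 for Nr4a2 and 0.087 for Dusp6. Leaving out single libraries gave ranges across 0 between sorts for Fos (-0.65 to 0.47), Junb (-0.43 to 0.74), Maff (-0.14 to 1.81), Nr4a1 (-0.072 to 1.60), Hspa8 (-0.028 to 0.27), Dusp1 (-0.070 to 1.55), Dusp2 (-2.60 to 1.09), Zfp36 (-0.47 to 0.57), Zfp36l2 (-0.42 to 3.27), Btg1 (-0.81 to 0.42), Klf6 (-0.074 to 0.47) and Csrnp1 (-0.32 to 0.78). For number 1 they were Egr3 (-0.048 to 1.54), Nr4a2 (-2.74 to 0.76), Dnajb1 (-0.20 to 0.11), Dusp6 (-0.48 to 0.33) and Ier3 (-2.03 to 0.21). The low number 1 differences kept their sign in Dusp1, Fos, Jun, Egr1 and Btg1 but varied in size, from -6.57 to -4.41 for Dusp1, -4.69 to -3.07 for Fos, -4.83 to -2.82 for Jun, -5.02 to -3.08 for Egr1 and -3.41 to -1.51 for Btg1. Precision is limited by 3 libraries a sort and by low counts of Fosl1 and Maff.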

Other observations

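Low values in number 1 of both sorts were also shown by several early genes of the wider list, named here after their values were seen. Tnfaip3, which ends NF-kappaB signalling, had 285, 3509 and 1860.5 CPM in KLRG1-positive libraries, against 288, 1791 and 1494 CPM in KLRG1-negative libraries. Nfkbia, the NF-kappaB inhibitor that NF-kappaB itself induces, had 495, 1575 and 1097 CPM in KLRG1-positive libraries, against 259, 855 and 644 CPM in KLRG1-negative libraries. Cd69, an early activation and tissue retention marker of lymphocytes, had 361, 1273 and 951 CPM in KLRG1-positive libraries, against 282, 754 and 825 CPM in KLRG1-negative libraries. In all 3 the library numbered 1 was the lowest of each sort, and none passed the test by number (edgeR unadjusted p = 0.00101 for Tnfaip3, 0.000578 for Nfkbia and 0.0021 for Cd69, each with an adjusted p of 0.413).

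Of the 31 other early genes, 20 were lowest in number 1 of both sorts (17.6% of all genes) and 7 were at least 4-fold below both other numbers in both sorts (1.05% of all genes; Trib1, Sik1, Pim1, Phlda1, Rhob, Plk3 and Tnfaip3). Bhlhe40, a transcription factor of activated lymphocytes, had 341, 1516 and 1236 CPM in KLRG1-positive libraries, against 91.2, 554 and 520.4 CPM in KLRG1-negative libraries, higher in KLRG1-positive cells at each number with overlapping groups (log2 fold change 1.41 ± 0.80, edgeR adjusted p = 0.488). Sgk1 and Rhoh were highest in number 1 of both sorts, so the low values were not shared by every gene of the list. Sgk1, a kinase induced by salt and glucocorticoids, had 97.3, 75.5 and 70.9 CPM in KLRG1-positive libraries, against 131, 121 and 91.8 CPM in KLRG1-negative libraries.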
